A study of Homo sapiens with 18 samples.

Results

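Newly made RNA of 9 genes was followed in MDA-MB-453 cells given JQ1-VHL, a degrader of BET proteins: MAB21L4, CRIP2, FAH, ISG20, MCIDAS, CNKSR1, LAD1, DNPEP and HID1. They were chosen by a stronger fall under JQ1-VHL in the nuclear than in the cytoplasmic libraries, out of 12755 gene IDs in the deposited table. Of these IDs 10191 had enough signal to be tested, and all 9 genes are among them. The nuclear and cytoplasmic values, and the difference between them, therefore describe the choice and are given here without a test. Total RNA was not used in the choice and is tested. It holds both nuclear and cytoplasmic RNA, however, so this test is not independent of the choice.

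MDA-MB-453 is a human breast cancer cell line. Cells received JQ1-VHL or, as the control, DMSO for 3 h, and 0.1 mM 4-thiouridine (4sU) for the last 60 min. The sample titles name the drug as dBET and the treatment label names it as JQ1-VHL. Each treatment was sampled as total RNA, as nuclei and as the cytoplasm released by 1 mg/ml digitonin, with 3 libraries in each of the 6 groups. All groups were poly(A)-selected, carried ERCC synthetic RNA added by RNA mass, and had Drosophila S2 cells added after the cells were counted. The labels number the libraries by batch but do not say that they came from separate cultures, so p-values measure the spread between these libraries only. The table counts reads with T-to-C conversions, which mark RNA made during the 4sU pulse, and scales them to the ERCC RNA by its name. Such scaled reads are called units here.

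BET proteins bind acetylated histones and help RNA polymerase II leave the promoter-proximal pause. JQ1-VHL joins a BET ligand to a ligand of the VHL ubiquitin ligase, which marks BET proteins for degradation. New messenger RNA is capped, spliced and polyadenylated in the nucleus and then exported, so during a short label the nuclear pool holds the youngest molecules and the cytoplasmic pool those already exported. Because the ERCC RNA was added by RNA mass, a unit stands for new RNA per mass of RNA in a sample. A change in the amount of RNA per cell is thus not seen in units of these bulk libraries.

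What the table counts within a gene sets what a unit means. Values are given for numbered intervals of each gene, which were summed here, and what an interval is was not given in the sources used here. For 41.1% of the 10072 tested genes with an annotation, 5 of the 9 included, the highest interval number equalled the number of gaps between merged exons. For 12.1% it equalled the number of exon blocks. In genes where the gap number matched, DMSO nuclear reads were higher in longer gaps (median Spearman correlation within genes 0.418, 2775 genes), and for DMSO cytoplasmic reads this correlation was 0.0626 (2767 genes). The values may thus hold reads over introns, reads spliced across them or both, and this was not settled, so a cytoplasmic value below is not taken as mature messenger RNA.

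The libraries held between 1584517 and 6773386 converted reads, summed over intervals, and 1 read was worth between 0.470 and 2.75 units. DMSO total replicate 1 stood apart, with a rescaling factor, defined below, of 3.34 against 0.818 and 0.984 in DMSO total replicates 2 and 3. The DMSO cytoplasmic factors spread widely too, with 1.89, 0.352 and 2.98 in replicates 1, 2 and 3. JQ1-VHL nuclear replicate 3 had the fewest reads, 30.5% of its intervals at 0 and a factor of 0.175, against 0.486 and 0.670 in replicates 1 and 2. For these reasons each change is given on the ERCC scale and also rescaled, that is, divided by 1 median-of-ratios factor for each library. Rescaling sets the typical gene near no change, so a shift shared by most genes is removed. Rescaled changes and calls are thus relative to the typical gene. The median change of all genes in total RNA was -0.49 (log2) on the ERCC scale and -0.19 rescaled. Without DMSO total replicate 1 it was 0.15 on the ERCC scale, the opposite direction, and -0.18 rescaled. All 12 luminal apocrine markers of the line were measured well enough to test, against 2 of 15 markers of other lineages. In total RNA limma called 3 of the luminal markers lower and 0 higher on the ERCC scale (SPDEF, TFAP2B and FOXA1), and 7 lower and 3 higher rescaled. Of the other-lineage genes 0 were called on the ERCC scale by limma or edgeR, with 0 at an unadjusted p under 0.05. Rescaled limma called 1 of these 2 higher (COL1A1, 0.79, adjusted p = 0.00996), and edgeR with TMM and DESeq2 called 2 of 2 higher.

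The known roles of the 9 genes are of several kinds. MAB21L4 belongs to the MAB21 family and is known for a part in keratinocyte differentiation, CRIP2 is a cysteine-rich LIM-domain protein, and FAH is fumarylacetoacetate hydrolase, the last enzyme of tyrosine breakdown. ISG20 is an interferon-induced exonuclease, and MCIDAS (multicilin) is a co-regulator that starts the programme of multiciliated cells. CNKSR1 is a scaffold of RAS signalling, LAD1 (ladinin) is an anchoring-filament protein of epithelia, DNPEP is an aspartyl aminopeptidase of the cytosol, and HID1 acts at the Golgi in the maturation of dense-core vesicles.

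The genes were of moderate size. Their median length was 20.3 kb and their median merged exon length 4.75 kb, against 36.0 kb and 5.15 kb over the 10072 tested genes with an annotation (GENCODE 29, GRCh38). On GRCh38, MAB21L4 (ENSG00000172478) lies at chr2:240886048-240896889 on the minus strand, CRIP2 (ENSG00000182809) at chr14:105472962-105480170 on the plus strand and FAH (ENSG00000103876) at chr15:80152490-80186946 on the plus strand. ISG20 (ENSG00000172183) lies at chr15:88636153-88656483 on the plus strand, MCIDAS (ENSG00000234602) at chr5:55219614-55227315 on the minus strand and CNKSR1 (ENSG00000142675) at chr1:26177403-26189886 on the plus strand. LAD1 (ENSG00000159166) lies at chr1:201373244-201399915, DNPEP (ENSG00000123992) at chr2:219373527-219400022 and HID1 (ENSG00000167861) at chr17:74950743-74973166, all on the minus strand. Use of strand in counting is not given in the sources used here. The values of LAD1, which overlaps TNNT2 and an antisense gene, of DNPEP and HID1, which overlap antisense genes, and of FAH, which overlaps a lincRNA, may thus hold reads of those neighbours.

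RefSeq promoter windows (GRCh38.p14, 250 bases before to 50 after the start) were found for 8 of the 9 genes, all but HID1. They are shown for MAB21L4, whose total RNA had the largest change of the 9, for DNPEP, whose profile over the libraries was nearest to that of the other 8, and for MCIDAS, whose profile was farthest. Capitals mark matches on either strand to the GC box (GGGCGG), the CCAAT box (CCAAT) and the AP-1 motif (TGACTCA).
MAB21L4, chr2:240896107-240896406, minus strand: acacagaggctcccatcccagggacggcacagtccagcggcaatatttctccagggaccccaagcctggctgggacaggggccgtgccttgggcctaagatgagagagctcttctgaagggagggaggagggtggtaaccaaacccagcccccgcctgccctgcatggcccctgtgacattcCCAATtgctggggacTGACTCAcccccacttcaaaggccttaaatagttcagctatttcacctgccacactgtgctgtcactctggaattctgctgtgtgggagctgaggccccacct
DNPEP, chr2:219387863-219388162, minus strand: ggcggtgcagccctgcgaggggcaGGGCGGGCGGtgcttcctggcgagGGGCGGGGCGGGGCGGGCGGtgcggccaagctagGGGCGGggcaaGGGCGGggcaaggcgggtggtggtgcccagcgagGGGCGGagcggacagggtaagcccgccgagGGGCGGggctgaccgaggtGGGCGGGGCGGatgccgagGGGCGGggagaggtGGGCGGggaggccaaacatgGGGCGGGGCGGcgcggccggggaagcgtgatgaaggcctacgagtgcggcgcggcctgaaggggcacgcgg
MCIDAS, chr5:55227266-55227565, minus strand: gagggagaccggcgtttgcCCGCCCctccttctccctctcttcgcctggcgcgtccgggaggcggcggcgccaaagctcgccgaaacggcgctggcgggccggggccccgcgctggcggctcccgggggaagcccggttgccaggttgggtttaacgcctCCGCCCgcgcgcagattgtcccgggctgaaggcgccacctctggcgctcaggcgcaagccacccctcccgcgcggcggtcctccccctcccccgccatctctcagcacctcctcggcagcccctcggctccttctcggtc
The RefSeq starts of DNPEP and MAB21L4 lie inside the GENCODE spans given above. The GC box occurred in 6 of 8 windows (CNKSR1, LAD1, DNPEP, MCIDAS, FAH and ISG20), against 44.6% of the 27305 promoters in the table, and overlapping matches were counted as 1 window. MAB21L4 has no GC box, but holds a CCAAT box, as does CNKSR1 (35.7% of all promoters), and an AP-1 motif, as does ISG20 (4.92%). The E box CACGTG was found in ISG20 alone of the 8 (7.43% of all promoters). TATAAA (11.95%) and the ETS motif CCGGAAG (10.7%) were found in none of these 8 windows. CpG counts ran from 4 in MAB21L4 to 38 in LAD1 and MCIDAS, with a median of 17.5 against 14 over all promoters, so these 8 windows are not of one kind.

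In total RNA the 9 genes were lower after JQ1-VHL in every same-numbered pair of libraries for 9 of 9, on both scales, where 40.2% of all genes tested were so on the ERCC scale and 42.5% rescaled. Their median change was -2.18 (log2) on the ERCC scale and -1.88 rescaled. On the ERCC scale, limma with Benjamini-Hochberg adjustment called 1 of the 9 lower (MAB21L4), where 2.79% of all genes tested were called lower and 0.245% higher. Rescaled, it called 5 of the 9 lower (MAB21L4, CNKSR1, LAD1, DNPEP and HID1), where 18.4% of all genes were called lower and 12.2% higher. Over all genes this was 25 higher and 284 lower calls on the ERCC scale, and 1245 higher and 1876 lower calls rescaled. With the batch number as a block, 583 genes were called in place of 309 on the ERCC scale, and the count among the 9 was again 1. Every JQ1-VHL total library lay below every DMSO one for 7 of the 9 on the ERCC scale (24.8% of all genes) and for 8 of the 9 rescaled (34.3%). An exact two-sided permutation test of 3 against 3 libraries cannot go below p = 0.1. On rescaled values it gave that p for 8 of the 9 and 0.3 for MCIDAS. Since total RNA includes nuclear RNA, these counts among the 9 are not independent of how the genes were chosen.

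MAB21L4 changed most in total RNA. It had 96.2, 31.3 and 28.8 units in the JQ1-VHL total libraries, against 1253, 224 and 202 units in the DMSO ones. The groups did not overlap, and DMSO replicate 1 was far above the rest. The change was -3.09 ± 0.93 (log2 of units + 1, SE, limma adjusted p = 0.0399, n = 3 each), and rescaled it was -2.78 ± 0.47 (limma adjusted p = 0.000775). On the rescaled scale 3.93% of all genes fell further. The ERCC-scale call was lost without DMSO replicate 1 (log2 change -2.24, limma adjusted p = 0.531) and with 4 other single libraries left out, while the rescaled call held in each of these.

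The nuclear and cytoplasmic libraries of MAB21L4 show the pattern for which the 9 were listed. In nuclei it had 34.6, 44.6 and 3.33 units with JQ1-VHL, against 1345, 589 and 478 units with DMSO. In cytoplasm it had 46.1, 55.9 and 37.7 units with JQ1-VHL, against 77.6, 15.5 and 60.6 units with DMSO. The nuclear groups were far apart, and the cytoplasmic groups overlapped. The JQ1-VHL mean was thus 3.42% of the DMSO mean in nuclei, 9.31% in total RNA and 90.9% in cytoplasm. Without DMSO total replicate 1 the share in total RNA was 24.5%.

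**Figure D1:**
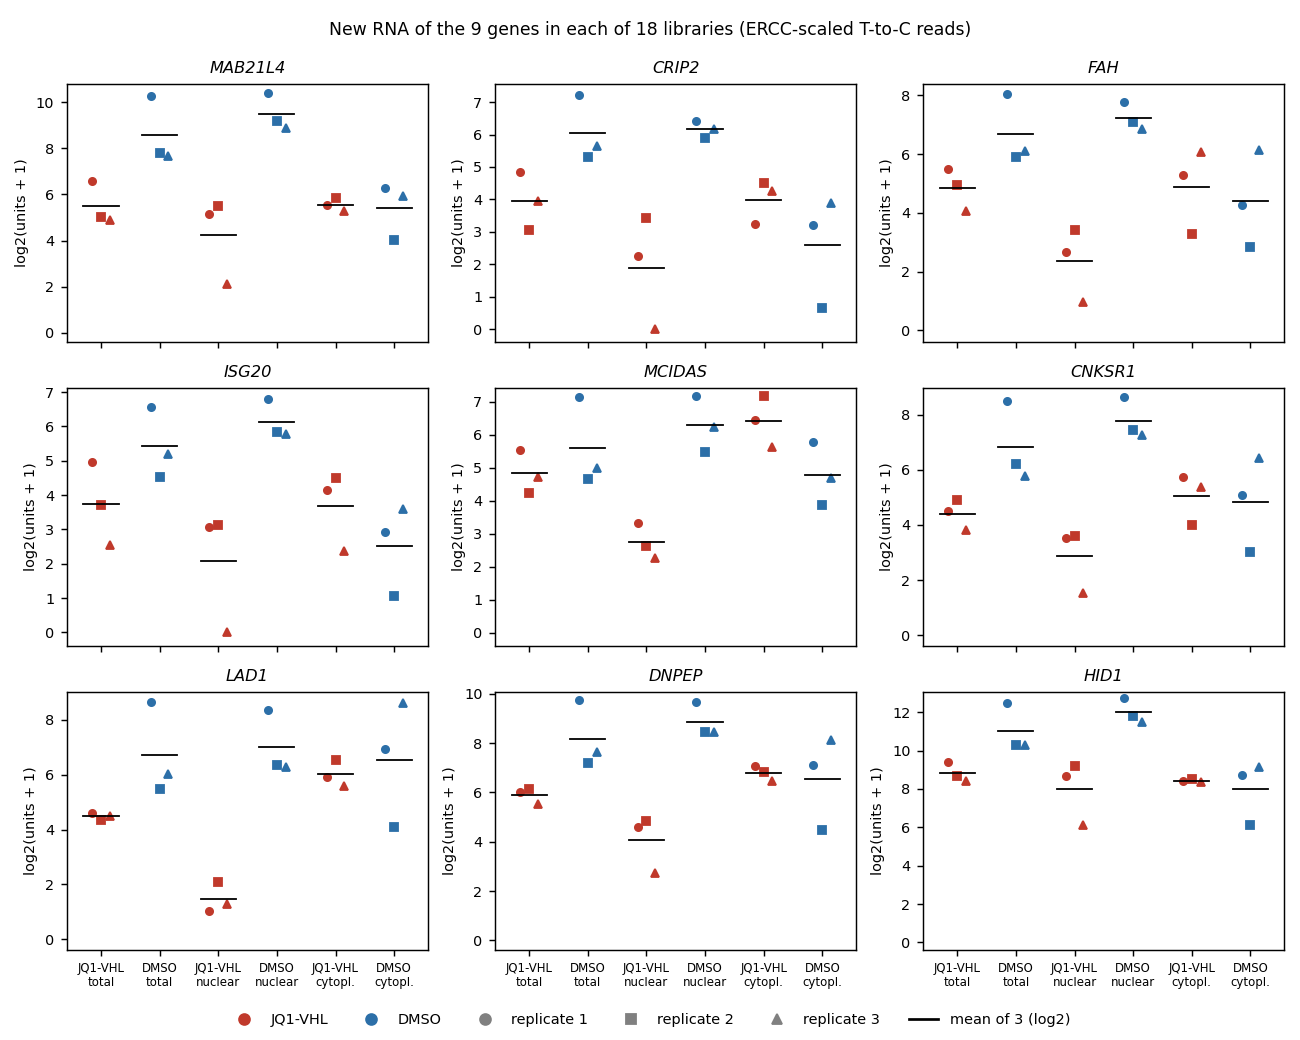
Values of the 9 genes in each of 18 libraries, as log2(units + 1), with JQ1-VHL left of DMSO within total, nuclear and cytoplasmic RNA. Each symbol is 1 library, its shape the replicate number, and the line is the mean of 3. The nuclear JQ1-VHL libraries lie below the DMSO ones for all 9 genes, and the cytoplasmic groups overlap for all 9. Nuclear and cytoplasmic values chose the genes, so nothing is read from these counts. The median nuclear change of all genes was itself -1.82 (log2), and the share of all genes with such a nuclear gap is not given here.

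HID1 had the highest level of the 9 per length, with means of 21.0 units per kb of gene in JQ1-VHL total RNA and 120.6 in DMSO total RNA. By library it had 671, 403 and 341 units in JQ1-VHL total RNA, against 5627, 1231 and 1251 units in DMSO total RNA. Its nuclei held 406, 593 and 67.5 units with JQ1-VHL, against 6798, 3527 and 2908 units with DMSO. These groups did not overlap in either kind of RNA. Its cytoplasm held 339, 372 and 323 units with JQ1-VHL, against 418, 68.5 and 565 units with DMSO, and there the JQ1-VHL libraries fell between the DMSO ones. The change in total RNA was -2.18 ± 0.82 (log2, SE, limma adjusted p = 0.120) on the ERCC scale and -1.88 ± 0.28 rescaled (limma adjusted p = 0.000298).

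DNPEP had 64.6, 68.6 and 45.6 units in JQ1-VHL total RNA, against 852, 145 and 198 units in DMSO total RNA. Its nuclei held 23.4, 27.8 and 5.70 units with JQ1-VHL, against 813, 349.7 and 346 units with DMSO. In both kinds of RNA all JQ1-VHL libraries were below all DMSO ones. In cytoplasm the values were 134, 112 and 86.6 units with JQ1-VHL, against 137, 21.0 and 278 units with DMSO, and the groups overlapped. The total change was -2.29 ± 0.91 (log2, SE, limma adjusted p = 0.148) on the ERCC scale and -1.98 ± 0.28 rescaled (limma adjusted p = 0.000248).

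CNKSR1 had 22.0, 28.9 and 13.2 units in JQ1-VHL total RNA, against 360.5, 73.3 and 54.0 units in DMSO total RNA, with no overlap. Its nuclei held 10.6, 10.98 and 1.90 units with JQ1-VHL, against 396, 176 and 154 units with DMSO. The total change was -2.41 ± 1.02 (log2, SE, limma adjusted p = 0.175) on the ERCC scale and -2.11 ± 0.53 rescaled (limma adjusted p = 0.00805). In cytoplasm its values, 52.4, 15.1 and 40.5 units with JQ1-VHL against 33.0, 7.18 and 85.4 units with DMSO, overlapped.

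LAD1 had 23.4, 19.3 and 21.6 units in JQ1-VHL total RNA, against 399, 43.2 and 64.7 units in DMSO total RNA. In nuclei it had 1.06, 3.23 and 1.43 units with JQ1-VHL (10 reads in all), against 329, 81.4 and 77.1 units with DMSO. Among the 9 it kept the least in both fractions, since its JQ1-VHL mean was 1.17% of the DMSO mean in nuclei and 37.8% in cytoplasm. Without DMSO cytoplasmic replicate 3 the cytoplasmic share was 96.97%. The cytoplasmic values were 58.6, 92.5 and 47.5 units with JQ1-VHL, against 121, 16.0 and 388 units with DMSO, so that overlap was wide. Its total change was -2.23 ± 1.01 (log2, SE, limma adjusted p = 0.216) on the ERCC scale and -1.93 ± 0.49 rescaled (limma adjusted p = 0.00857). That rescaled call was lost without DMSO total replicate 1 (limma adjusted p = 0.0504).

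MCIDAS had the smallest change of the 9 in total RNA. It had 45.4, 18.1 and 25.2 units in JQ1-VHL total RNA, against 141, 24.4 and 31.2 units in DMSO total RNA, and the groups overlapped on both scales. Its change was -0.78 ± 1.03 (log2, SE, limma adjusted p = 0.877) on the ERCC scale and -0.48 ± 0.53 rescaled (limma adjusted p = 0.507), so no difference was shown. Without DMSO total replicate 1 the ERCC-scale change was -0.0060 (log2), and the JQ1-VHL mean was 106.2% of the DMSO mean. In nuclei it had 9.04, 5.17 and 3.80 units with JQ1-VHL, against 144, 43.8 and 73.8 units with DMSO. In cytoplasm it had 85.9, 144 and 48.9 units with JQ1-VHL, against 54.5, 13.8 and 24.8 units with DMSO, with a JQ1-VHL mean of 299.6% of the DMSO mean. Without DMSO cytoplasmic replicate 1 that share was 481.7%.

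CRIP2, FAH and ISG20 had few reads. In total RNA, CRIP2 had 27.5, 7.22 and 14.4 units with JQ1-VHL, against 147, 38.2 and 48.7 units with DMSO, without overlap. FAH had 44.0, 30.1 and 15.6 units with JQ1-VHL, against 264, 58.3 and 68.5 units with DMSO, likewise without overlap. ISG20 had 30.2, 12.03 and 4.80 units with JQ1-VHL, against 94.7, 21.9 and 35.8 units with DMSO, with overlap on the ERCC scale only. Their total changes were not called on either scale. On the ERCC scale they were -2.11 ± 1.10 for CRIP2, -1.85 ± 1.04 for FAH and -1.70 ± 1.11 for ISG20 (log2, SE), with limma adjusted p of 0.316, 0.368 and 0.488. Rescaled they were -1.80, -1.55 and -1.39, with limma adjusted p of 0.0908, 0.0870 and 0.195.

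In nuclei CRIP2 had 3.72, 9.69 and 0 units with JQ1-VHL, against 85.2, 58.9 and 71.0 units with DMSO. FAH nuclei held 5.32, 9.69 and 0.950 units with JQ1-VHL, against 218, 135 and 115 units with DMSO. ISG20 nuclei held 7.45, 7.75 and 0 units with JQ1-VHL, against 109.7, 56.7 and 53.6 units with DMSO. All JQ1-VHL nuclear libraries of these 3 genes thus lay below all DMSO ones, and nuclear values entered the choice of the genes. In JQ1-VHL nuclear replicate 3 both CRIP2 and ISG20 had 0 reads, where 3 reads, the number that a count of 0 allows, would be 1.43 units. CRIP2 had 8.38, 21.5 and 18.2 units in cytoplasm with JQ1-VHL, against 8.26, 0.552 and 13.8 units with DMSO. FAH had 37.7, 8.60 and 67.0 units there with JQ1-VHL, against 18.2, 6.07 and 68.9 units with DMSO. ISG20 had 16.8, 21.5 and 4.19 units there with JQ1-VHL, against 6.60, 1.10 and 11.02 units with DMSO. These cytoplasmic groups overlapped for all 3 genes. In cytoplasm the 3 DMSO libraries together held 11 reads of CRIP2 and 10 reads of ISG20, so their JQ1-VHL to DMSO shares of 213% and 227% rest on very few reads.

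Over the 9 genes the JQ1-VHL mean was between 1.17% and 8.06% of the DMSO mean in nuclei, between 9.31% and 45.1% in total RNA and between 37.8% and 299.6% in cytoplasm. These shares rest on single libraries. Without DMSO total replicate 1 the total RNA shares ran from 24.5% (MAB21L4) to 106.2% (MCIDAS), and all 9 moved by over 1.5 times. Without JQ1-VHL total replicate 1 they ran from 5.37% to 33.0%, and 3 moved that far. Without DMSO cytoplasmic replicate 3 the cytoplasmic shares ran from 96.97% (LAD1) to 367.1% (ISG20), and 6 of the 9 moved that far. In nuclei 4 moved that far without JQ1-VHL replicate 2 (0.766% to 7.36%) and 2 without DMSO replicate 1 (2.40% to 11.04%). Without DMSO cytoplasmic replicate 1, MCIDAS moved that far, and without JQ1-VHL cytoplasmic replicate 3, FAH did. Without JQ1-VHL nuclear replicate 3, the nuclear ratio of means ran from 0.0132 in LAD1 to 0.113 in HID1, against 0.0117 and 0.0806 with it. On the log2 scale the median nuclear change of the 9 was -4.79 and their median cytoplasmic change 0.44, against -1.82 and -0.02 over all genes. Rescaled, the 9 had -3.23 in nuclei and 0.51 in cytoplasm, against -0.01 and 0.05 over all genes. The nuclear median of all genes thus moved with the scale by more than that of the cytoplasm. Rescaling sets such medians near 0 by its construction. The nuclear minus cytoplasmic difference ranked from 9 (CRIP2) to 86 (HID1) from the lowest among 10191 genes, and the list that named the 9 gives no threshold. Total RNA changed by an amount between nuclear and cytoplasmic for 9 of 9, and so for 68.5% of all genes. The 9 were chosen for a wide gap between the fractions, which makes this likely, so nothing is read from that count.

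**Figure D2:**
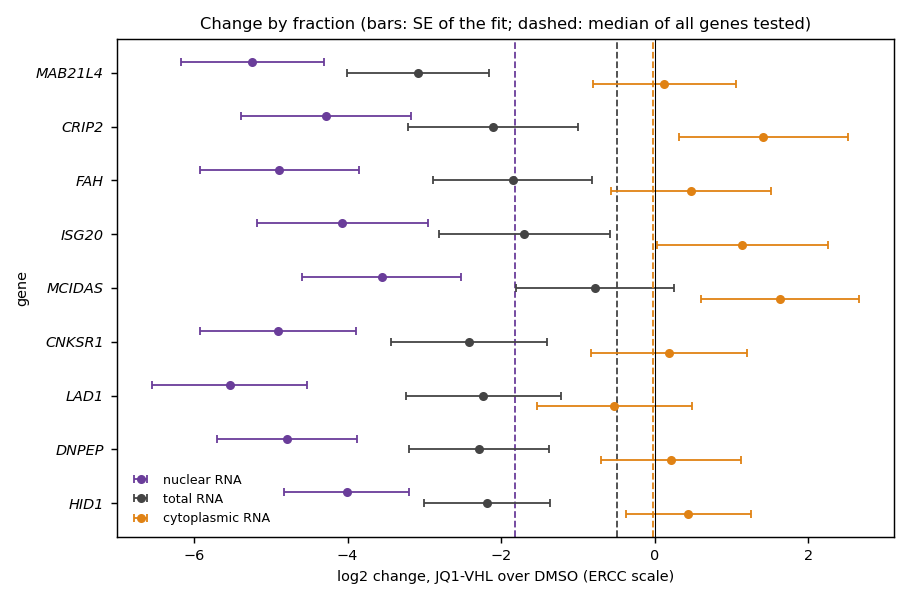
Log2 change (JQ1-VHL over DMSO, ERCC scale) of each of the 9 genes in nuclear, total and cytoplasmic RNA, with bars for the SE of the fit and dashed lines for the median of all genes tested (-1.82, -0.49 and -0.02). Total RNA lies between the fractions for all 9. The nuclear and cytoplasmic values chose the genes, so nothing is read from this.

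In cytoplasm, direction depended on the scale and on the gene. No gene of the 9 had all JQ1-VHL libraries above all DMSO ones on the ERCC scale (1.37% of all genes did), and 4 of the 9 did rescaled (CRIP2, ISG20, MCIDAS and HID1, against 18.8% of all genes). Since cytoplasmic values entered the choice, nothing is read from these counts. For MCIDAS and CRIP2 the JQ1-VHL value was higher in each same-numbered cytoplasmic pair on both scales. In CRIP2, pair 1 had 8.38 units with JQ1-VHL against 8.26 units with DMSO, from 4 and 5 reads, and DMSO replicate 2 held 1 read. LAD1 and MAB21L4 were higher in 1 pair of 3 on both scales.

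The ratio of nuclear to cytoplasmic units was on average below 0 (log2) with JQ1-VHL and above 0 with DMSO for all 9 genes. The median over all genes also averaged below 0 with JQ1-VHL and above 0 with DMSO. Nuclear and cytoplasmic values chose the 9 genes, so nothing is read from that count. For MAB21L4 the mean log2 ratio was -1.30 with JQ1-VHL and 4.07 with DMSO. HID1 had -0.44 with JQ1-VHL and 4.02 with DMSO. Its JQ1-VHL mean was below 0 through pair 3 (-2.24), while pairs 1 and 2 had 0.26 and 0.67. MCIDAS had -3.68 with JQ1-VHL and 1.51 with DMSO. LAD1 had the lowest mean of the 9 in each treatment, with -4.55 with JQ1-VHL and 0.47 with DMSO. Over all genes the median of the ratio averaged -1.003 ± 0.434 with JQ1-VHL and 0.55 ± 1.55 with DMSO (SD, n = 3 each), and in single DMSO pairs it ran from -1.08 to 2.01, so the DMSO ratios are loose. HID1 ranked between the 38.1 and 71.4 percentile of all genes in the 3 JQ1-VHL pairs and between 90.2 and 98.6 in the 3 DMSO pairs. MAB21L4 ranked between 23.7 and 58.5 with JQ1-VHL and between 92.3 and 97.1 with DMSO. LAD1 ranked between 0.962 and 8.19 with JQ1-VHL and between 26.8 and 64.5 with DMSO, so its place against the median gene in DMSO cells differed by pair. Units are scaled to RNA mass in each fraction, so a ratio of 1 does not mean equal molecules per cell.

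**Figure D3:**
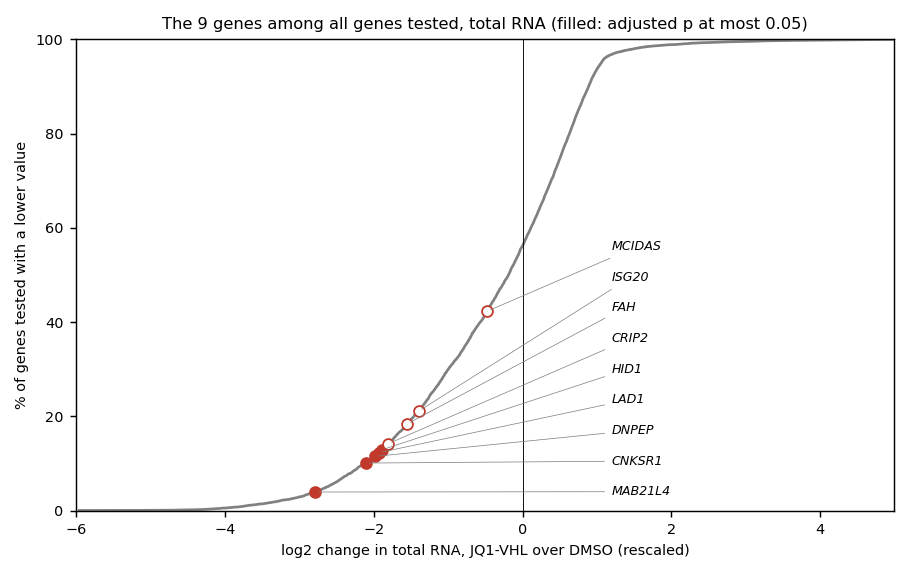
Rescaled log2 change in total RNA (x axis, JQ1-VHL over DMSO) against the percent of the 10191 genes tested with a lower value (y axis); the grey curve is all genes, points are the 9 genes, filled where the adjusted p is at most 0.05. MAB21L4 has 3.93% of genes below it, and MCIDAS 42.3%.

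The numbered intervals show where in each gene the reads lay. Numbers ran along the genome on both strands: DMSO nuclear reads correlated with gap length at a median Spearman value of 0.418 in 1544 plus-strand genes and 0.419 in 1231 minus-strand genes, against 0.0357 and 0.0509 with the order reversed. In LAD1, MCIDAS, DNPEP and HID1 the highest number did not match the gap count, so the order of their intervals was not tested. Intervals were split by reads of the DMSO fractions alone. Those that held a larger share of the gene's cytoplasmic than of its nuclear reads are called cytoplasm-leaning, and the rest are the other intervals. In total RNA the cytoplasm-leaning intervals changed by a median of -1.89 (log2) over the 9 genes and the other intervals by -3.04. They were the less changed in 8 of 9 genes, all but MCIDAS, as in 72.7% of the 9281 genes with enough reads, whose medians were -0.51 and -1.30. The 9 genes share this pattern with most genes, and it is given as a description. Neighbouring intervals may count the same fragment, and this was not tested.

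FAH had the widest split. Its 5 cytoplasm-leaning intervals changed by 0.01 (log2) in total RNA and its 6 others by -4.03. From its largest interval alone the change of FAH in total RNA was -3.81 ± 1.10 (log2, SE), against -1.85 when all its intervals were summed. The largest interval was the one with the highest mean over all 18 libraries. High DMSO values thus entered that choice, and no test is drawn from it. The cytoplasm-leaning class is small, with 60 reads over the DMSO total libraries. Intervals 6 to 8 of FAH held 47 of 70 reads in JQ1-VHL total RNA, against 36 of 314 reads in DMSO total RNA. In cytoplasm the same intervals held 46 of 70 reads with JQ1-VHL, against 16 of 47 reads with DMSO. Counts of FAH in treated cells thus lay mostly in these 3 intervals in both total and cytoplasmic RNA. Intervals 7 and 8 each held 16 reads in JQ1-VHL total RNA and 18 reads in JQ1-VHL cytoplasm, with equal mean units. The same fragments may be counted in both, so these sums may stand for fewer fragments. This was not tested. If the numbers stand for the gaps between merged exons of GENCODE 29, the block lies at chr15:80160524-80168050 (GRCh38), inside the gene and away from both ends.

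LAD1 and CRIP2 had blocks of the same kind, and these blocks, like that of FAH, were picked after their values were seen. In LAD1, intervals 5 to 8 held 46 of 51 reads in JQ1-VHL total RNA, against 174 of 352 reads in DMSO total RNA, and 94 of 105 reads in JQ1-VHL cytoplasm, against 111 of 243 reads in DMSO cytoplasm. In CRIP2, intervals 6 and 7 held 25 of 38 reads in JQ1-VHL total RNA, against 66 of 198 reads in DMSO total RNA. In cytoplasm they held all 27 reads with JQ1-VHL, against 9 of 11 reads with DMSO. In MCIDAS, intervals 3 and 4 held 57 of 69 reads in JQ1-VHL total RNA, against 112 of 150 reads in DMSO total RNA, and 116 of 143 reads in JQ1-VHL cytoplasm, against 42 of 67 reads in DMSO cytoplasm. In total and cytoplasmic RNA of treated cells, most counts of FAH, LAD1 and CRIP2 thus lay in part of the gene. A fragment counted in several intervals would raise these sums, and this was not tested. In JQ1-VHL nuclei the blocks held 10 of 27 reads of FAH, 9 of 10 of LAD1 and 15 of 22 of CRIP2, against 85 of 750, 374 of 711 and 156 of 360 reads in DMSO nuclei.

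**Figure D4:**
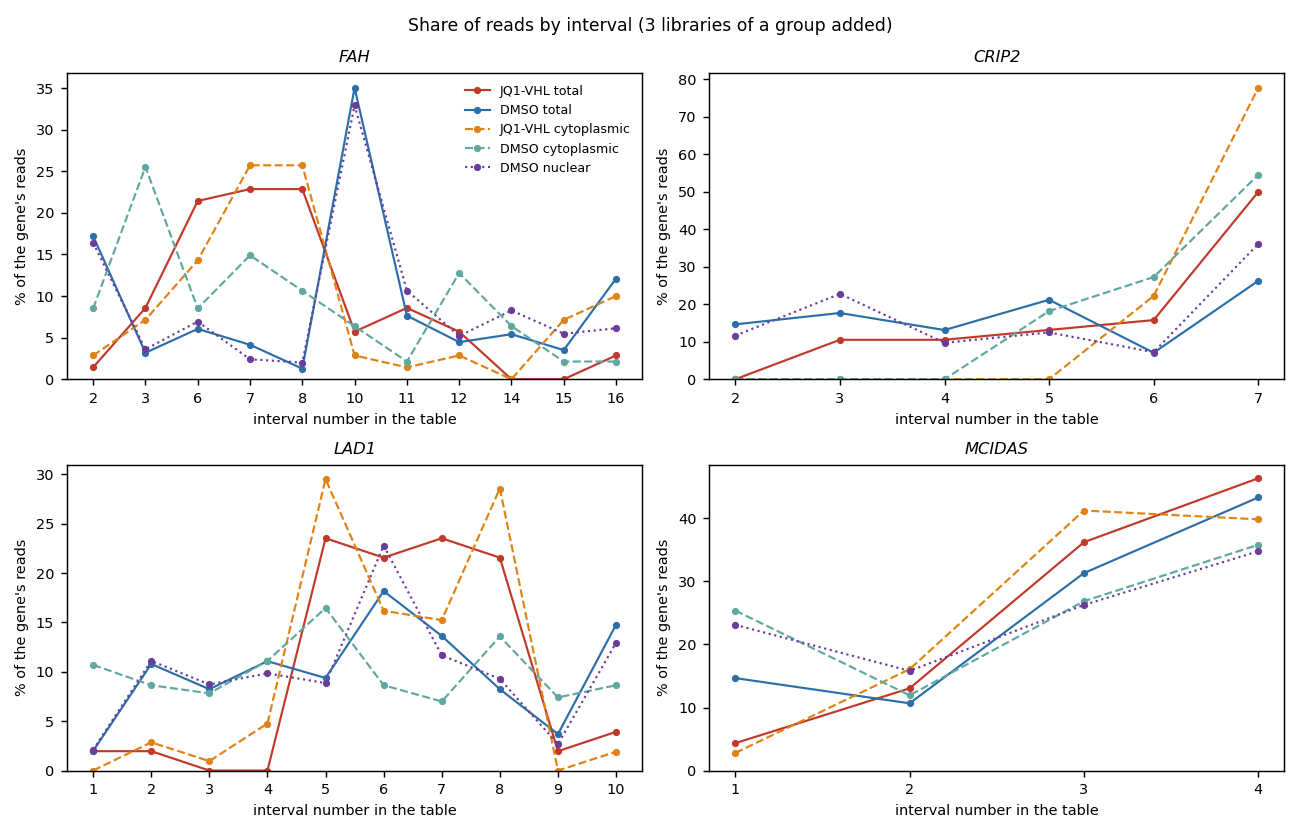
Percent of a gene's reads (y axis) in each numbered interval (x axis) of FAH, CRIP2, LAD1 and MCIDAS, with 3 libraries added per group; lines are JQ1-VHL and DMSO total RNA, JQ1-VHL and DMSO cytoplasm, and DMSO nuclei. In FAH, intervals 6 to 8 hold 67.1% of JQ1-VHL total reads, against 11.5% of DMSO total reads.

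Genes related to the 9 by family or pathway did not move as one. Of 85 such genes tested in 11 lists, limma called 1 lower and 0 higher in total RNA on the ERCC scale. On the same scale edgeR called 1 lower and 0 higher. Of the 85, 8 had an unadjusted limma p under 0.05, against 1714 of all 10191 genes tested. Rescaled, limma called 10 lower and 14 higher, edgeR with TMM 9 lower and 27 higher, and DESeq2 16 lower and 18 higher. Their median change was -0.14 (log2) on the ERCC scale, against -0.49 over all genes and -2.18 over the 9.

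Relatives of MAB21L4 and FAH included genes that were lower. CGAS, the only other tested MAB21-family gene and a sensor of cytosolic DNA, changed by -2.54 (limma adjusted p = 0.161) on the ERCC scale and by -2.23 (limma adjusted p = 0.00449) rescaled. Of 3 genes of phenylalanine and tyrosine breakdown, limma called 1 lower rescaled, edgeR with TMM 1 and DESeq2 all 3. This was PCBD1, which recycles the cofactor of phenylalanine hydroxylase, with -1.43 (limma adjusted p = 0.0199) rescaled. On the ERCC scale PCBD1 changed by -4.14 in nuclei and had 0.11 in cytoplasm. QDPR, which restores the same cofactor, had -2.19 (limma adjusted p = 0.263) in total RNA.

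In the multiciliated-cell programme, the cyclin-like gene CCNO was the one call among the 85 on the ERCC scale. It averaged 8.82 ± 9.11 units in JQ1-VHL total RNA and 149 ± 133 units in DMSO total RNA (SD, n = 3 each), a change of -4.00 ± 1.06 (log2, SE, limma adjusted p = 0.0158). The other 9 tested genes of that list were not called on the ERCC scale. Rescaled, 3 of the 10 were lower and 1 higher.

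For the remaining lists, counts are rescaled calls by limma in total RNA. Among 15 RAS-pathway genes 2 were lower and 3 higher, and HRAS was lowest on the ERCC scale with -2.05 (limma adjusted p = 0.162). Among 13 interferon-stimulated genes 2 were lower and 1 higher. Of 8 exoribonucleases 0 were called rescaled, with 0 at an unadjusted p under 0.05 on the ERCC scale, 1 lower by DESeq2 and 1 higher by edgeR with TMM. Among 15 genes of dense-core vesicles 0 were lower and 5 higher, and CPE, a prohormone-processing carboxypeptidase, was highest with 2.31 on the ERCC scale (limma adjusted p = 0.263) and 2.59 rescaled (limma adjusted p = 0.0149). Of 11 aminopeptidases 0 were lower and 3 higher, while edgeR with TMM called 9 higher and DESeq2 5, and of 5 hemidesmosome genes 0 were lower and 1 higher. With edgeR and TMM 6 RAS-pathway genes and 2 hemidesmosome genes were higher. CSRP1, the one tested relative of CRIP2, had -0.90 on the ERCC scale and was not called.

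Across the 18 libraries the 9 genes did not all have the same profile. The Pearson correlation of each with the mean of the other 8 was 0.95 for DNPEP, 0.92 for CNKSR1, 0.91 for MAB21L4, 0.87 for FAH, 0.84 for CRIP2, 0.82 for ISG20, 0.77 for HID1, 0.54 for LAD1 and 0.43 for MCIDAS. These are rescaled log2 values over libraries that share treatment and fraction, and are descriptive. The 5 genes outside the list whose profile was most like the mean of the 9 were ELP6 (0.94), NELFCD (0.93), SLC2A4RG (0.90), UFSP2 (0.90) and PSD4 (0.90). ELP6 is a subunit of Elongator and NELFCD a subunit of the negative elongation factor of RNA polymerase II.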

How the data were processed

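SLAM-seq libraries of MDA-MB-453 cells (18, 6 groups of 3) were used. The authors deposited a table of 98665 numbered gene intervals whose values are, by the deposited table's name, T-to-C read counts scaled to ERCC RNA (a signal, not raw counts). Per the submitters' processing notes, tools included bcl2fastq, Trimmomatic 0.39, HISAT2, HTSeq and DESeq2, with builds GRCh37/hg19 and dm3; their roles and settings are not given in the sources used here. In each library 100% of values were whole multiples of the smallest one (within 0.01), which recovered reads for edgeR 4.0.16 and DESeq2 1.42.0 as alternatives. Intervals were summed by gene, 12755 IDs, and 10191 with a mean of at least 10 units were tested with limma 3.58.1 (trend, robust) on log2(units + 1), a scale that understates changes of low genes, over all 18 libraries, two-sided, Benjamini-Hochberg at 0.05 over all genes. The 9 genes, the gene lists and the tests were chosen with earlier results of these data known. All 9 genes are named; from a list, the text may name the tested genes with the lowest and highest ERCC-scale change in total RNA, and for some lists it gives counts only. TFAP2B and FOXA1 were named after their values were seen. The 5 most similar genes were chosen by correlation. Batch numbers pair libraries by label: same-numbered deviations correlated at 0.22, 0.08 and 0.16 in total RNA, -0.14 to 0.29 in nuclei and -0.05 to 0.06 in cytoplasm. The method was tested on simulated data. Intervals and floors cover counting error only, as no molecular identifiers are named. The result of 1 gene list is not reported here.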

Additional observations from a re-analysis of the deposited data

How the results depend on the processing

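In total RNA 309 genes were called in the reported fit. The count was 3121 rescaled, 61 with a pseudocount of 0.1, 630 with no filter on low values, 580 with the total libraries only, 583 with the replicate block, 3564 with the block rescaled, 3809 with edgeR and TMM, and 4223 with DESeq2. Leaving out 1 library gave 18 to 236 genes on the ERCC scale, and rescaled 2914, 1947 and 1545 without JQ1-VHL replicate 1, 2 or 3 and 1836, 1881 and 2017 without DMSO replicate 1, 2 or 3; the lowest ERCC-scale counts came without JQ1-VHL replicate 3 (18) and without DMSO replicate 1 (27). The rescaled leave-one-out was added after the data were seen. The count of the 9 genes called lower was 1 in the reported fit, 0 with a pseudocount of 0.1, 2 with the total libraries only, 2 with the largest interval, 5 rescaled, 5 with the block rescaled, 5 with edgeR and TMM, and 7 with DESeq2; without 1 library it was 0 to 1 on the ERCC scale and 4 to 5 rescaled. Of the 9 genes, 5 had an unadjusted limma p under 0.05 on the ERCC scale, as had 1714 of the 10191 genes tested. The largest interval of a gene was the one with the highest mean over all 18 libraries, so high DMSO values entered that choice. MAB21L4 was called in 15 of 22 alternatives, with adjusted p from 4.28e-09 to 0.531. In these alternatives the log2 changes of the 9 genes in total RNA stayed below 0, but that of MCIDAS was -0.0060 without DMSO replicate 1, against -0.78 with it, and its ratio of means then turned to 106.2%. Shares of the DMSO mean without single libraries were added after the data were seen. The nuclear minus cytoplasmic difference, whose sign the choice of genes fixes, ran from -7.34 to -2.66 (log2) over 16 alternatives. The cause of these shifts was not tested. Low depth limits cytoplasmic values of CRIP2 and ISG20 and JQ1-VHL nuclear values of LAD1, CRIP2, ISG20 and FAH. FAH had 27 reads over the JQ1-VHL nuclear libraries, with 2 in replicate 3, where CNKSR1 had 4 and MCIDAS 8. In JQ1-VHL cytoplasm 48 of the 70 FAH reads came from replicate 3, and 4 from replicate 2.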
